A study of Ictidomys tridecemlineatus with 15 samples.

Results

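Early-stage primary retinal progenitor cells (RPCs) of the 13-lined ground squirrel (13LGS, Ictidomys tridecemlineatus) are described here from embryonic day 18 (E18) to E26, the day before birth. They are the cells that the authors annotated as early-stage primary RPCs in single-cell RNA-Seq of whole retinas, taken at E18, E21, E24 and E26. The rule found 8841 cells among 53394 in the whole series (16.6%), and among 19630 cells of the embryonic libraries (45.0%). A further 60 cells with the same annotation came from postnatal libraries and are not members. The squirrels were untreated animals of captive-bred stock, with embryos from timed-pregnant dams, and how many animals went into a library is not stated in the sources used here. The retinas were either methanol-fixed or flash-frozen, and which was used for which library is not given, so age and preservation cannot be told apart. There was 1 library at E18 and there were 2 each at E21, E24 and E26, called a and b below.

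Primary RPCs are the dividing cells that build the vertebrate retina. They renew themselves and produce neurogenic RPCs (N. RPCs), which leave the cell cycle and become neurons. Early-stage RPCs are known mainly as the source of retinal ganglion cells, horizontal cells and cones, whereas late-stage RPCs give rise to rods, bipolar cells and Müller glia. The 13LGS has a cone-dominant retina. The authors propose that its cones come from late-stage neurogenic progenitors in addition to early-stage ones.

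The matrix holds 34181 gene rows, and the separate list of gene names holds 30265 entries without row numbers. The files do not pair names with rows, so each gene is called by its matrix row number, and what those genes do cannot be said. For the same reason the label could not be tested against Sfrp2, Ccnd1, Hes1, Mki67 and Id3, genes that mark these progenitors, and no sequence is shown. Reads that near-identical gene copies share could not be traced either.

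Each cell was compared instead with the mean profiles of all 12 annotated types, built without the cell's own library. The annotation was made from the same cells and genes, so agreement with it is partly built in and does not test the label. Cells were first thinned to 3000 unique molecular identifiers (UMIs, each a captured mRNA molecule), which kept 8536 of 8841 cells. By Pearson correlation of log2(CPM + 1) over all rows with a mean of at least 10 counts per 1e+06 UMIs (CPM), 49.95% lay nearest the early-stage primary profile and 36.3% nearest the early-stage neurogenic profile. Another 10.5% lay nearest photoreceptor precursors and 3.21% nearest late-stage primary RPCs. The answer depended on the measure. It was 89.0% for the primary profile with the 1000 highest rows, and 94.2% with a multinomial likelihood, which was added after these values had been seen. By the likelihood 5.79% of the cells were nearest the neurogenic profile and 1 cell of 8536 was nearest the late-stage profile. No cell was nearest ganglion cells by any of these measures. Over all cells, the boundary of the label with N. RPCs was thus less sharp than that with late-stage progenitors by the likelihood. By correlation the boundary with N. RPCs was not sharp. E26a differed, since correlation placed 21.4% of its cells nearest the late-stage profile and 5.18% nearest the neurogenic profile. In E26b these shares were 3.80% and 51.5%. With the 1000 highest rows those of E26a were 10.9% and 5.81%. The reference differed as well, since the neurogenic profile used for E26a lacked the 4064987 UMIs of that library. This was the largest neurogenic sum of an embryonic library. By library, the likelihood placed 86.2% (E24a) to 97.6% (E18) of the cells with their own type. By correlation more cells lay nearest the neurogenic than the primary profile in 3 of 7 libraries, with 50.8% against 31.9% in E24a, 46.1% against 44.1% in E24b and 51.5% against 37.2% in E26b. The profiles pooled UMIs over libraries, so they differed in the weight of each age as well as in type. E18 held 37304721 UMIs of primary RPCs and 2975444 of N. RPCs, and E26a held 7427493 and 4064987. The part of these weights in the shares was not tested.

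The libraries contributed unequal numbers of primary RPCs. There were 3892 at E18, 870 and 648 at E21, 1129 and 619 at E24, and 1018 and 665 at E26. E18 alone therefore held the largest group, and its UMI sum was 37304721, against 7427493 to 12702639 in the other libraries. Between any pair of embryonic libraries at most 8 cell barcodes of all cell types were shared.

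The next measurement asks how many of the early-stage progenitors were neurogenic at each age. At E18, 11.1% of the 4376 early-stage progenitors were N. RPCs (95% Wilson interval 10.2% to 12.02%). The share was 18.1% in E21a and 19.6% in E21b, 17.1% in E24a and 19.1% in E24b. At E26 the libraries disagreed, with 29.5% in E26a (interval 27.2% to 31.9%) and 15.7% in E26b (interval 13.3% to 18.4%). E18 was thus the lowest library, and the pair at E26 spanned nearly all of the range above it. No relation of this share with age was detected over the 7 libraries, with Spearman's rho 0.31 (exact two-sided permutation test, p = 0.502, adjusted over 3 relations p = 0.502) and Pearson's r 0.60 (p = 0.144 by exact permutation, 0.433 adjusted). E18 lies farthest from the median age, with E21a and E21b equally far next. Without E18 and E21a r was 0.26, and without E18 and E21b it was 0.36. All intervals here cover counting error only.

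**Figure D1:**
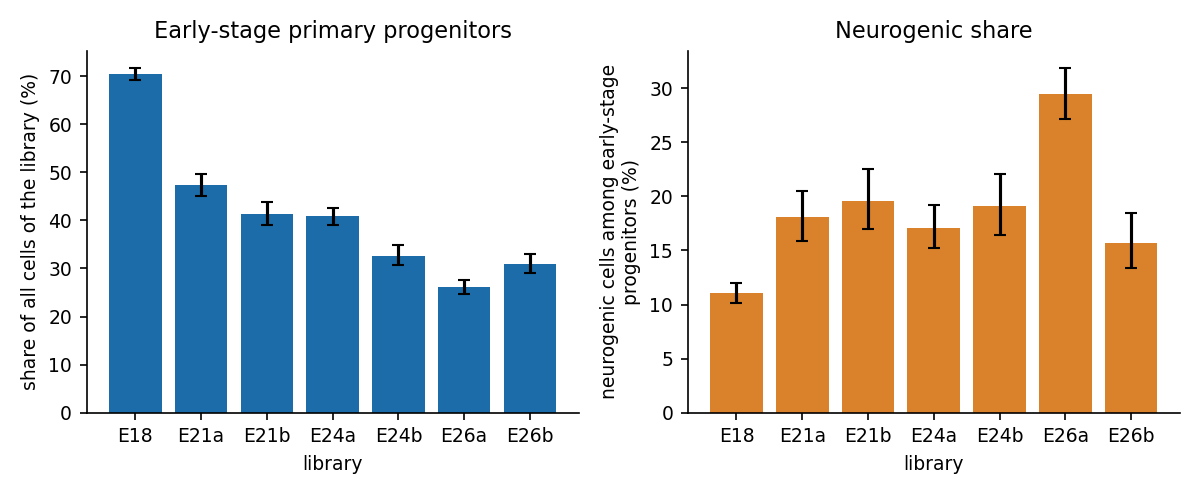
Left, early-stage primary RPCs as a share of all cells in each of the 7 embryonic libraries (%), and right, N. RPCs as a share of all early-stage progenitors (%), with 95% Wilson intervals as error bars. The left bars run from 70.5% at E18 to 26.1% in E26a, and on the right E26a stands at 29.5% beside 15.7% in E26b.

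The UMIs of primary RPCs fell relative to those of ganglion cells as age increased. The median primary RPC held 8019.5 UMIs at E18, 10276.5 and 12634 at E21, 5999 and 10432 at E24, and 5390.5 and 8353 at E26. These medians followed the libraries more than the ages, with wide gaps between the paired libraries at E24 and E26. No relation with age was detected (rho −0.39, exact permutation p = 0.413, adjusted p = 0.502; r −0.43, adjusted p = 0.502, and −0.76 without E18 and E21a or −0.59 without E18 and E21b). Within a library, depth is shared by all types, and the median primary RPC held more UMIs than the median N. RPC in 6 of 7 libraries. The geometric mean of that ratio was 1.24 (mean log2 ratio 0.31 ± 0.17, SD, n = 7; p = 0.03125 by an exact two-sided permutation of signs). E24a was the exception, at 0.988. With mean rather than median UMIs per cell the exact permutation p was 0.125.

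Against ganglion cells the ratio of median UMIs changed with age. It was 1.06 at E18, 0.969 and 0.898 at E21, 0.647 and 0.738 at E24, and 0.620 and 0.667 at E26. By these medians primary RPCs were the deeper type at E18 only, whereas by mean UMIs per cell they were deeper at E18 (ratio 1.19) and in E21a (1.26) and E21b (1.19). All E24 and E26 libraries lay below all E18 and E21 libraries in the ratio of medians. The relation with age, which was tested after the values had been seen, had rho −0.90 (exact permutation p = 0.0127, adjusted over 2 added relations p = 0.0254) and r −0.95 (p = 0.00317 by exact permutation, 0.00635 adjusted). Without E18 and E21a r was −0.90 and without E18 and E21b it was −0.91 (exact permutation p = 0.0667 for each), and without E18 alone rho was −0.84 (exact permutation p = 0.0667). The ratio says only that the types diverged, not which of them changed. Over the 7 libraries the ratio averaged 0.784 (mean log2 ratio −0.35 ± 0.31, SD, n = 7; exact sign-flip permutation p = 0.0469), and with mean UMIs per cell it was 0.963 (exact permutation p = 0.641).

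At an equal depth of 3000 UMIs, fewer distinct gene rows were detected in primary RPCs than in ganglion cells, and no difference from N. RPCs was detected. The median number of rows detected per primary RPC was 1481 at E18, 1529 and 1522.5 at E21, 1400.5 and 1488 at E24, and 1453 and 1522 at E26. Ganglion cells were higher in 7 of 7 libraries, and the mean difference, primary RPCs minus ganglion cells, was −84.6 rows (SD 24.7, n = 7; exact sign-flip permutation p = 0.0156, the smallest that 7 pairs allow). The difference from N. RPCs was 4.21 rows (SD 21.6, n = 7; exact permutation p = 0.547), with single libraries from −19.5 to 41.5. The number of rows showed no detected relation with age (rho −0.31, exact permutation p = 0.502, adjusted p = 0.502; r −0.25, adjusted p = 0.573, and −0.22 without E18 and E21a or −0.27 without E18 and E21b). Thinning left out 1.05% to 7.07% of the primary RPCs of a library, and before thinning the medians ran from 2194 to 3978.5 rows. The 50 highest rows took 25.2% to 28.5% of the UMIs.

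**Figure D2:**
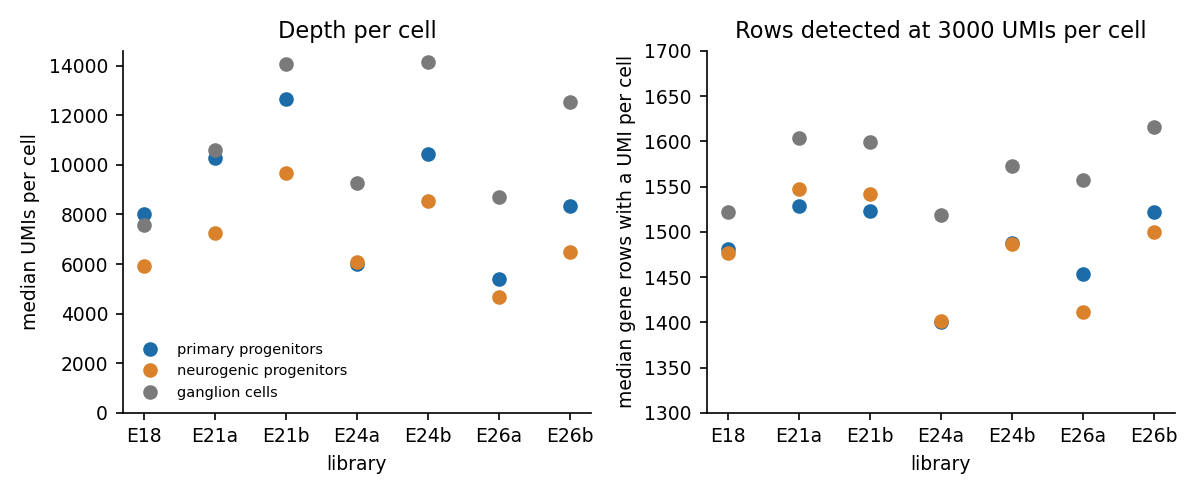
Left, median UMIs per cell, and right, median number of gene rows with a UMI after thinning each cell to 3000 UMIs (axis from 1300 to 1700), per library for primary RPCs, N. RPCs and ganglion cells. Primary RPCs lie above ganglion cells at E18 only in the left panel, and below them in all 7 libraries in the right panel.

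Expression of the primary RPC population was then compared between libraries, which asks how these progenitors changed before birth. UMIs were summed over all primary RPCs of a library. The sums were highly correlated across 15903 rows, with Pearson's r of log2 CPM from 0.925 to 0.977 among the 21 pairs of libraries. These correlations are across genes of shared annotation, which are not independent replicates. Libraries of the same age had r of 0.972 (E21), 0.977 (E24) and 0.976 (E26). Libraries 8 days apart had r of 0.925 and 0.931. E21a was as close to E18 (0.977) as libraries of the same age were to each other, and closer to E18 than to E21b. E24 and E26 libraries were likewise nearly as alike (0.969 to 0.974) as their own pairs. The first principal component held 47.4% of the variance. E18 and both E21 libraries lay on one side of it, from −63.3 to −26.0, and the E24 and E26 libraries on the other, from 16.3 to 47.2.

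**Figure D3:**
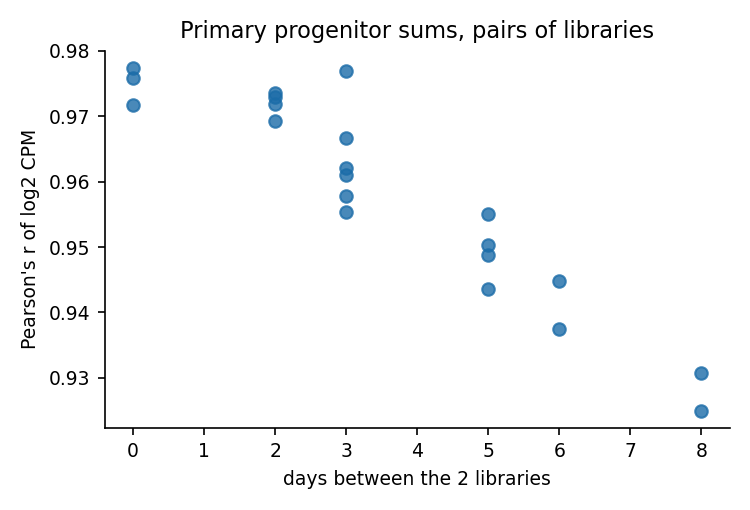
Pearson's r of log2 CPM between the primary RPC sums of each pair of the 7 libraries, against the number of days between them. Pairs of the same age lie at 0.972 to 0.977 and the pairs 8 days apart at 0.925 and 0.931.

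With age as a continuous covariate, 2212 of 15903 rows tested changed in primary RPCs between E18 and E26 (13.9%; edgeR quasi-likelihood test, adjusted p below 0.05). Of these, 1142 rose (7.18%) and 1070 fell (6.73%). TMM scaling centers the changes of all rows (median −0.00066 log2 units per day), so rises and falls are relative to the bulk of rows. A change of at least 2-fold over the 8 days was fitted for 683 of the rising and 615 of the falling rows, and, among rows with a mean of at least 20 CPM, for 213 rising and 101 falling rows. Among rows with a mean of at least 20 CPM, 985 of 6105 were called. The E18 library carried much of the count, which was 659 without it. It was 1316 without E26a and 1442 without E26b, and 1148 when E24 and E26 were compared with E18 and E21 as groups.

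Neighboring time points were also compared, which was added after these values had been seen. Between E18 and E21, 190 rows passed the threshold (1.19% of 15903), and between E21 and E24 168 rows did (1.06%). Between E24 and E26, 2 rows passed it (0.0126%), and 986 had an unadjusted p below 0.05 (6.20%). These intervals span 3, 3 and 2 days, and E18 has a single library, which was assumed to vary like the other time points. Single libraries decided these counts, since the step from E18 to E21 held 567 rows without E21a and 125 without E26b, that from E21 to E24 held 47 without E24a, and that from E24 to E26 held 13 without E21b, 9 without E21a and 6 without E24a. Whether the steps differed from each other was not tested.

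By the rule for named rows, the steepest rise among rows with a mean of at least 20 CPM was that of row 12285. Its level in primary RPCs was 0.348 CPM at E18, 15.3 and 15.1 CPM at E21, 64.5 and 61.0 CPM at E24, and 80.8 and 44.0 CPM at E26. It was nearly absent at E18, intermediate at E21 and high from E24 on, with no overlap between these 3 levels. The rise was 0.69 log2 units per day (SE 0.13, edgeR adjusted p = 0.00686) and 0.45 without E18. It rose in N. RPCs too (0.63), with no detected difference from primary RPCs (−0.12, edgeR adjusted p = 0.475), and less in ganglion cells (0.24; difference 0.41, edgeR adjusted p = 0.00207). In a comparison of E24 and E26 with E18 and E21 as groups the row missed the threshold (edgeR adjusted p = 0.0534). Ganglion cells had more of this transcript in every library, from 29.1 CPM at E18 to 146 CPM in E26b, so that the level in primary RPCs was 1.20% of theirs at E18 and 30.1% to 69.8% from E24 on. Row 30873, at 129 and 162 CPM in the ganglion cells of E26, was in primary RPCs at 0.312% and 0.222% of that level. That row was named for its rise in ganglion cells and its more negative change in primary RPCs. A low share in primary RPCs was thus partly built in. Row 666 was in primary RPCs at 2.74% of its ganglion level in E26a and 1.59% in E26b. The part of RNA released by ganglion cells in row 12285 was not tested, and these rows do not measure it.

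Row 20248 rose as well, from 1.61 CPM at E18 and 5.67 and 5.68 CPM at E21 to 31.8 and 24.5 CPM at E24 and 45.0 and 44.9 CPM at E26. Each time point lay above the one before it without overlap. The rise was 0.63 log2 units per day (SE 0.045, edgeR adjusted p = 3.33e-05). The row also rose in N. RPCs, by 0.61 (edgeR adjusted p = 0.000351), and in ganglion cells, by 0.56 (edgeR adjusted p = 7.39e-05). Its change in primary RPCs was not detectably different from either, with differences of −0.050 (edgeR adjusted p = 0.840) and 0.0047 (edgeR adjusted p = 0.990). At 3000 UMIs per cell, 0.505% of the primary RPCs had a UMI of this row at E18, and 12.4% and 12.8% did at E26. In ganglion cells the corresponding shares were 0.184%, 2.46% and 2.75%. Before thinning the primary RPC shares were 1.39%, 24.4% and 35.3%. Unlike row 12285, it was higher in primary RPCs than in ganglion cells in all 7 libraries.

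Row 9607 fell in all 3 types, from a much higher level in primary RPCs. It stood at 646 CPM at E18, 116 and 72.4 CPM at E21, 10.7 and 22.0 CPM at E24, and 11.3 and 11.7 CPM at E26. At E18 the row was thus 56.1-fold above its mean at E26 (11.5 ± 0.30 CPM, SD, n = 2), and the E24 and E26 libraries lay below all earlier ones. The fall was −0.73 log2 units per day (SE 0.051, edgeR adjusted p = 2.99e-05), steeper than in N. RPCs by −0.37 (edgeR adjusted p = 2.57e-07) and than in ganglion cells by −0.10 (edgeR adjusted p = 0.0315). At 3000 UMIs per cell, 74.5% of the primary RPCs had a UMI of it at E18, against 10.4% of the ganglion cells, and at E26 3.70% and 4.26% of the primary RPCs did. Before thinning these primary RPC shares were 89.6%, 7.76% and 12.9%. N. RPCs held 58.1 CPM at E18 and 7.38 and 7.43 CPM at E26.

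Row 5492 fell at a like rate in every type examined. In primary RPCs it was at 497 CPM at E18, 343 CPM in E21a, 23.8 CPM in E21b, 8.93 and 24.8 CPM at E24, and 9.02 and 14.6 CPM at E26. The break lay between the E21 libraries, so the E21 libraries differed from each other more than E21b did from any later library. In ganglion cells it was at 405 CPM at E18, 220 CPM in E21a and 17.7 CPM in E21b. The fitted fall was −0.75 log2 units per day in primary RPCs (SE 0.13, edgeR adjusted p = 0.00352), −0.75 in N. RPCs (adjusted p = 0.00022) and −0.73 in ganglion cells (adjusted p = 0.000841). A difference in its fall between primary RPCs and ganglion cells was not detected (−0.0016 log2 units per day, edgeR adjusted p = 0.979). The part that a feature common to a whole library had in this change was not tested.

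**Figure D4:**
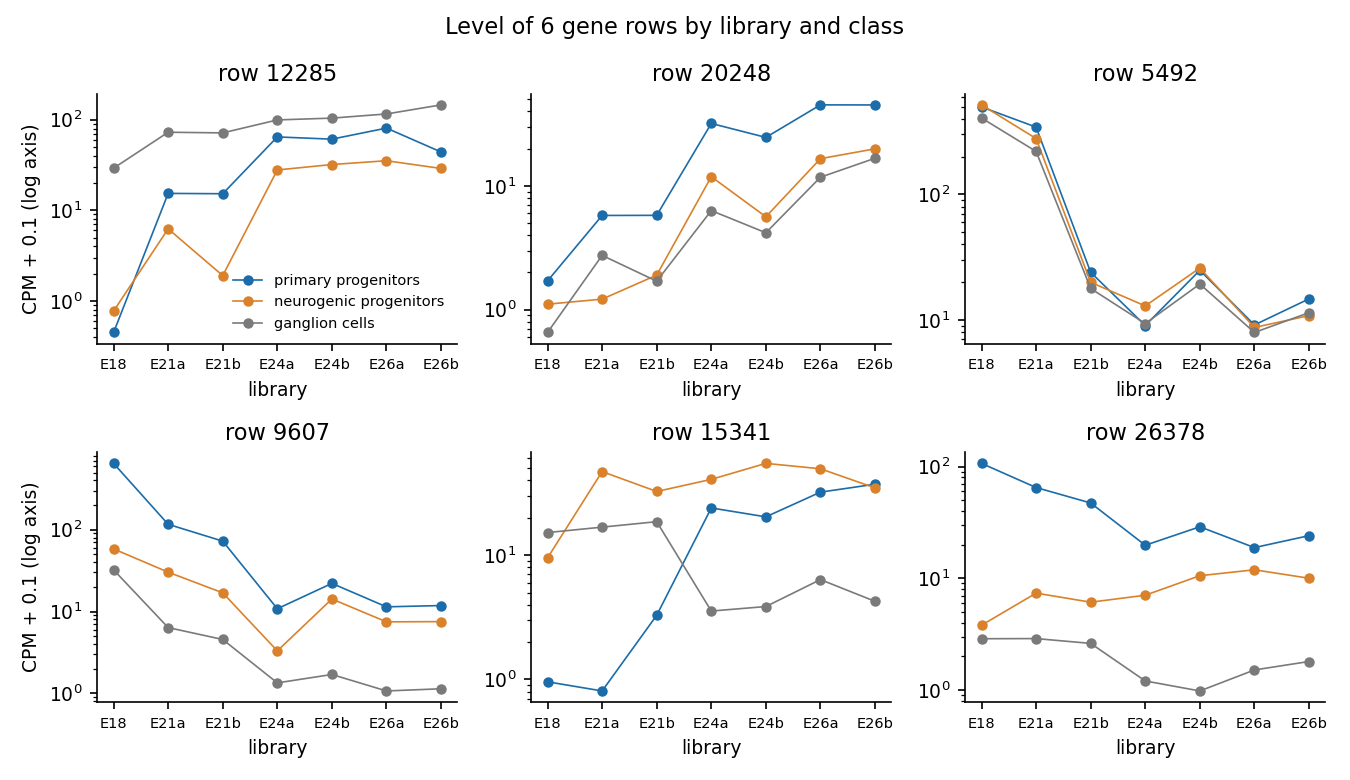
Level of 6 gene rows (CPM + 0.1, log axis) in primary RPCs, N. RPCs and ganglion cells of each library, with lines that join the libraries of a type. Rows 12285 and 20248 rose and row 9607 fell with age in all 3 types, and rows 15341 and 26378 changed differently in primary and neurogenic RPCs. Row 5492 had a negative fitted change in all 3 types, with its break between the E21 libraries.

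A change that all types of a library share cancels when types are compared within libraries. The age change was therefore compared between primary RPCs and N. RPCs in the same 7 libraries, with the library as a block, which asks where the dividing progenitors changed differently. It differed for 762 of 15620 rows (4.88%; edgeR adjusted p below 0.05), more positive in primary RPCs for 327 (2.09%) and more negative for 435 (2.78%). The filter on low counts was applied to the sums of both types together, so a row could enter through a single type. In the separate fits, 2212 of 15903 rows changed in primary RPCs and 848 of 11248 in N. RPCs (7.54%; 541 rose, 4.81%, and 307 fell, 2.73%; 286 in all without E18 and 534 without E26a), whose sums were smaller, at 1211584 to 4064987 UMIs. Without E18 the number of rows that differed was 431. Which direction held more rows was not stable. Without cells of more than 2 times the median UMIs of their type and library, 324 rows differed, 205 more positive and 119 more negative in primary RPCs, without E26a the split was 368 and 253, and with DESeq2 it was 315 and 281.

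The E26a library stood apart in rows that bear on N. RPCs. Row 25145 was at 284 CPM in the primary RPCs of E26a, 477 CPM in its N. RPCs and 367 CPM in its ganglion cells, against 5.59 to 12.9 CPM in all 3 types of every other library. Its rise in N. RPCs, 0.79 log2 units per day (edgeR adjusted p = 0.0122), was 0.065 without E26a (edgeR adjusted p = 0.681). Row 666, at 2087 CPM in the ganglion cells of E26a, was at 523 CPM in its N. RPCs and 57.2 CPM in its primary RPCs, against 30.5 and 24.7 CPM in E26b. Most N. RPCs of E26a had no UMI of row 666. Before thinning 33.2% of them had one, against 37.3% in E24a, where the level was 109 CPM. Its rise in N. RPCs was 0.76 log2 units per day, and 0.40 without cells of more than 2 times the median UMIs. Such cells made up 17.6% of the N. RPCs of E26a. The part of E26a in the other differences between primary and neurogenic RPCs is given only by the count without it.

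Row 15341 had the largest positive difference by the rule for named rows. In primary RPCs it was at 0.858 CPM at E18, 0.709 and 3.18 CPM at E21, 23.9 and 20.2 CPM at E24, and 32.0 and 37.1 CPM at E26. In N. RPCs it was at 9.41 CPM at E18 and already at 46.9 and 32.4 CPM at E21, and then between 34.7 and 54.7 CPM. Primary RPCs lay below N. RPCs in every library but E26b. The changes per day differed by 0.56 log2 units (SE 0.081, edgeR adjusted p = 4.56e-05), and by 0.38 without cells of more than 2 times the median UMIs (edgeR adjusted p = 0.00774). Few primary RPCs carried the row, with a UMI in 7.17% of them in E26a and 9.02% in E26b before thinning, and 3.81% and 3.34% at 3000 UMIs per cell. In ganglion cells the same row fell (edgeR adjusted p = 0.00995), from 15.1 to 18.5 CPM at E18 and E21 to 3.45 to 6.26 CPM later.

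Row 26043 fell in N. RPCs (−0.27 log2 units per day, edgeR adjusted p = 0.00237) and rose in primary RPCs (0.17, edgeR adjusted p = 0.0368). It was at 58.8 CPM in N. RPCs at E18, 74.3 and 51.7 CPM at E21, and 13.9 to 24.6 CPM at E24 and E26. In primary RPCs it was lowest at E18, at 6.35 CPM, and between 15.9 and 23.8 CPM in all later libraries. The rise there thus lay between the single E18 library and the later ones. The changes per day differed by 0.47 log2 units (SE 0.038, edgeR adjusted p = 8.62e-09), and by 0.43 without E18.

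Rows 26378 and 30976 fell in primary RPCs, while in N. RPCs row 26378 rose (0.20 log2 units per day, edgeR adjusted p = 0.0398) and no change of row 30976 was detected (0.014, edgeR adjusted p = 0.931). Row 26378 was at 107 CPM in primary RPCs at E18, 64.8 and 47.1 CPM at E21, 19.6 and 28.8 CPM at E24, and 18.7 and 23.95 CPM at E26. In N. RPCs it was between 3.70 CPM at E18 and 11.8 CPM in E26a, levels that rest on few UMIs, from 10 (E21b) to 48 (E26a) per library. The changes per day of row 26378 differed by −0.49 log2 units (SE 0.047, edgeR adjusted p = 6.51e-08). Without cells of more than 2 times the median UMIs that difference was −0.31 (edgeR adjusted p = 0.00793). Row 30976 was at 99.2 CPM at E18, 82.3 and 82.1 CPM at E21, 19.6 and 48.1 CPM at E24, and 14.0 and 10.5 CPM at E26. The difference in change per day from N. RPCs was −0.39 log2 units (SE 0.049, edgeR adjusted p = 6.24e-06). Both rows were higher in primary RPCs than in ganglion cells in all 7 libraries.

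The same comparison with ganglion cells, postmitotic neurons that mature over this period, gave more rows past the threshold. Ganglion cell sums, at 7181360 to 12495373 UMIs, were larger than those of N. RPCs, and the part of this in the counts was not tested. The age change differed for 4177 of 17757 rows (23.5%; edgeR with the library as a block), more positive in primary RPCs for 2183 (12.3%) and more negative for 1994 (11.2%), and for 2520 rows without E18. The filter was again applied to the sums of both types together, and some of the 4177 rows entered through ganglion cells alone. In the separate fit, 3629 of 16390 rows changed in ganglion cells (22.1%; 1959 rose, 12%, and 1670 fell, 10.2%), and 1919 did without E18. Row 8876 crossed over. In primary RPCs it rose from 9.57 CPM at E18 to 60.9 and 54.7 CPM at E26, while in ganglion cells it fell from 62.0 CPM to 6.61 and 5.47 CPM, a difference of 0.76 log2 units per day (SE 0.028, edgeR adjusted p = 1.25e-10). Row 11636 was in ganglion cells between 81.1 and 107 CPM, and in primary RPCs went from 0.509 CPM at E18, 1.81 and 3.36 CPM at E21, to 18.2 and 12.1 CPM at E24 and 26.5 and 27.4 CPM at E26. N. RPCs lay between both types for this row, at 7.06 CPM at E18 and 123 and 65.2 CPM at E26, where E26a was above its ganglion cells. The changes per day of row 11636 in primary RPCs and ganglion cells differed by 0.71 log2 units (SE 0.045, edgeR adjusted p = 5.64e-08).

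In the other direction, rows 30873 and 30874 rose in ganglion cells and stayed at 0 to 5 UMIs per library in primary RPCs. Row 30873 went in ganglion cells from 0.333 CPM at E18 to 129 and 162 CPM at E26, with 4 UMIs among the 37304721 of the primary RPCs at E18 and 3 in each E26 library. Row 30874 had at most 5 UMIs in the primary RPCs of any library. Neither row passed the filter on low counts in primary RPCs and both entered the comparison through ganglion cells alone, so no test of a difference in change is given for them. Both are still among the rows counted above as different from ganglion cells.

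**Figure D5:**
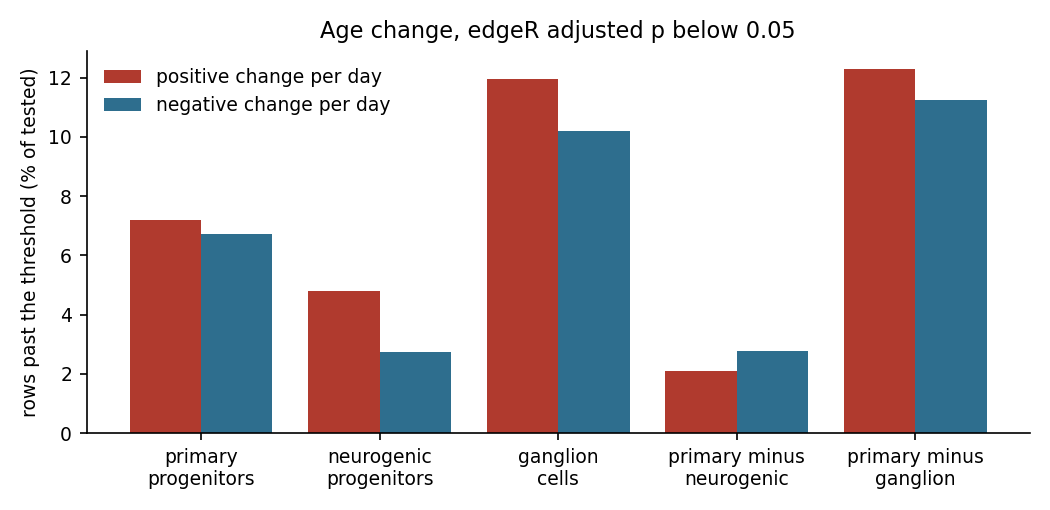
Share of tested rows (%) with a positive or negative change per day at an edgeR adjusted p below 0.05, in primary RPCs, N. RPCs and ganglion cells, and for the difference in change between primary RPCs and each other type. The difference from N. RPCs passed the threshold for 4.88% of the rows and that from ganglion cells for 23.5%. For these differences the filter on low counts was applied to both types together, so a row could enter through a single type.

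Types were also set side by side irrespective of age. Since the annotation was made from the same cells and genes, this is a description without a test. Of 9028 rows with a mean of at least 10 CPM in either type, 24 were at least 2-fold higher in primary RPCs than in N. RPCs in each of the 7 libraries (0.266%), and 61 were at least 2-fold lower (0.676%). Against ganglion cells the numbers were 974 (9.64%) and 1212 (12%) of 10103 rows. Without E26b the rows at least 2-fold apart from N. RPCs were 131 in place of 85. Primary and neurogenic RPCs were thus separated by few rows at this fold.

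The rows with the widest separation in their least separated library were these. Row 6253 was at 67.0 ± 24.2 CPM in primary RPCs and 12.5 ± 4.42 CPM in N. RPCs (SD, n = 7 each), and fell in primary RPCs from 99.1 CPM at E18 to 46.7 and 43.8 CPM at E26. Row 31014 was at 68.2 CPM in the primary RPCs of E18 and 5.65 and 4.19 CPM in those of E26. It remained at least 2.84-fold above N. RPCs, on the scale of CPM + 1, throughout. Rows 10245 and 10246, neighbors in the matrix, were higher in N. RPCs, at 26.9 ± 15.7 and 35.7 ± 16.8 CPM against 1.14 ± 0.56 and 1.90 ± 0.65 CPM in primary RPCs (SD, n = 7 each). Their levels in other types were not compared.

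Against ganglion cells, row 32457 was at 950.0 ± 180 CPM in primary RPCs and 7.59 ± 3.47 CPM in ganglion cells (SD, n = 7 each), a 125-fold difference. It ranged from 748 CPM in E21a to 1266 CPM in E26b among the primary RPC sums. Row 92 was at 241 ± 51.1 against 2.02 ± 0.65 CPM, 119-fold higher in primary RPCs. Row 21522 was 160-fold lower in primary RPCs than in ganglion cells and row 32824 was 249-fold lower, at 1.01 ± 0.43 against 252 ± 31.0 CPM (SD, n = 7 each).

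Late-stage primary RPCs, which follow after birth, had a profile that the later embryonic libraries resembled more. Across 15903 rows, r of log2(CPM + 1) with the sum of 1374 late-stage primary RPCs of the single P4 library was 0.901 at E18, 0.916 and 0.905 at E21, 0.933 and 0.924 at E24, and 0.939 and 0.932 at E26. Every E24 and E26 library lay above every earlier one, while E26b lay just below E24a. With the 42 late-stage cells found in E26a itself r ran from 0.849 at E18 to 0.887 in E26a. Of the rows that changed with age, 574 of the 1142 rising rows (50.3%) were higher in the P4 cells than at E26, against 43.3% of all tested rows, and 478 of the 1070 falling rows were (44.7%). The other late-stage sums did not share one pattern. For P8a, P8b, P12a and P12b the shares of rising rows were 43.9%, 51.1%, 42.9% and 39.9%, against 40.2%, 41.2%, 39.5% and 40.9% of all tested rows. P4 is a single library of lower depth, with a median of 1530.5 UMIs per late-stage cell, and the part of depth was not tested.

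Within a library, primary RPCs differed from each other along an axis whose row weights were alike in all 7 libraries. At 3000 UMIs per cell, the median ratio of variance to mean over 6756 rows was 1.03 in all 7 libraries, where Poisson counting gives a ratio of 1. Between 87 and 121 rows had a ratio over 1.5, and between 21 and 32 rows over 2. Of the 200 most variable rows of each library, 106 were shared by all 7. The first principal component held 1.72% to 2.46% of the variance among cells. Its row weights were correlated between libraries with an absolute r of at least 0.859, with a median of 0.913 over pairs. The weights were barely related to the difference between N. RPCs and primary RPCs (absolute r 0.0061 to 0.0470), and weakly to that between ganglion cells and primary RPCs (0.139 to 0.196). Cells were also ordered by their total UMIs along it, with an absolute r of 0.209 to 0.453 although each had been thinned to the same depth. These values are descriptions across cells and rows that share a library. Without gene names the axis cannot be tied to a process.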

How the data were processed

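Whole 13LGS retinas were profiled with 10x Chromium 3′ libraries. Per the methods, the authors aligned and counted with CellRanger 3.1.0 against HiC_Itri_2, merged libraries with CellRanger aggr 3.1.0, and named clusters in Seurat 4.0.4 from marker genes. The processing notes name GRCm38, a mouse build, as well. How cells were filtered, doublets removed or depth equalized is not stated in the sources used here. The deposited values are UMI counts per gene row and cell, whole numbers and not normalized. A library is a time point plus the suffix of the cell name, and a and b follow suffix order. The suffixes do not show the replicate numbers of the labels. Whether libraries of a time point came from separate animals is not given, so p-values measure the spread between libraries. P1 (6920 cells) had 2 suffixes and 1 labeled sample and entered no comparison. Embedding coordinates were not used.

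UMIs were summed per library and type (at least 10 cells), filtered with filterByExpr, scaled by TMM and tested with edgeR 4.0.16 in R 4.3.3 (glmQLFit, glmQLFTest), with Benjamini-Hochberg adjustment over all rows. The SE is the log2 change divided by the square root of F. Printed CPM are UMIs per 1e+06 UMIs of a sum, without TMM. The study tested single cells in Seurat; sums per library were used here because cells are not replicates. Class contrasts used log2(CPM + 1). Doublets were not removed; an alternative left out cells over 2 times the median UMIs of their library and type. Named rows had an adjusted p below 0.05, a mean of at least 20 CPM and the steepest change, 2 per direction. For type contrasts they had the largest of the smallest folds over libraries. In simulated sums with 200 changed rows of 15410, 100% of those changed by 0.25 log2 units per day were recovered in the primary RPC comparison. For the differences from N. RPCs and ganglion cells 97% and 93% were. Only rows above a limit on counts were changed, with the same dispersion for every row and no effects of single libraries. The median absolute change in the data was 0.042 log2 units per day, and recovery of changes of that size was not simulated. Exact permutation tests used Python 3.11.15. Alternatives were DESeq2 1.42.0, its size factors, no filter, other models of age, thinned sums and each library left out. The members and lists were chosen with earlier results of these data known.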

Additional observations from a re-analysis of the deposited data

Results flagged for a closer look

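The age change differed between types in the same libraries by a test of the difference itself (edgeR with the library as a block). Between primary RPCs and N. RPCs it differed for 762 rows. Among the rows named for primary RPCs or for either comparison, the difference that passed, primary minus neurogenic in log2 units per day, was 0.56 for row 15341, 0.47 for row 26043, 0.28 for row 11636, −0.49 for row 26378, −0.39 for row 30976 and −0.37 for row 9607. Between primary RPCs and ganglion cells it differed for 4177 rows. There the difference, primary minus ganglion, was 1.04 for row 15341, 0.76 for row 8876, 0.71 for row 11636, 0.46 for row 26043, 0.41 for row 12285, −0.18 for row 30976, −0.14 for row 26378 and −0.10 for row 9607. Named rows that passed the filter on low counts in a single type alone are not listed here. The counts of 762 and 4177 rows were not limited in this way, since the filter was applied to the sums of both types together.

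Cells annotated as early-stage primary RPCs were also found in data outside the comparisons. They made up 1.39% of the cells with the second cell-name suffix of P1 (52 of 3732), and 1 of 3188 cells with the other suffix. Groups of 1 or 2 libraries were too small for the test for a single outlying sample.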

How the results depend on the processing

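No paired analysis was possible because the suffixes in the cell names do not show the replicate numbers of the labels, so the planned fit with those numbers as a block across time points was not run. Types were paired within libraries. In primary RPCs the 2212 rows that changed with age became 1148 with E24 and E26 against E18 and E21, and 1311 with time point as a factor. Leaving out each library gave 659 to 2747 rows in primary RPCs, 286 to 780 in N. RPCs, 1919 to 3700 in ganglion cells, 431 to 852 for primary against neurogenic and 2520 to 4123 for primary against ganglion. In N. RPCs 1374 rows were called with no filter and 482 without cells over 2 times the median UMIs, and without those cells 324 rows differed between primary and neurogenic RPCs. DESeq2 called 3290 rows in primary RPCs. With mean UMIs per cell the log2 ratio of primary RPCs was 0.33 to N. RPCs (exact permutation p = 0.125) and −0.055 to ganglion cells (exact permutation p = 0.641), and without each library the median ratio ran from 0.28 to 0.37 and from −0.42 to −0.29. The relation of the ganglion ratio with age had rho −0.74 without E18 and E21a or E18 and E21b and −0.97 to −0.84 without each library. For the neurogenic share rho was −0.16 without those 2 libraries and 0 without E18 and E21b, a choice added after seeing the data, and ran from −0.12 (without E18) to 0.62. The nearest profile was the own type for 30.8% of the cells at 1500 UMIs, 94.2% by likelihood and 89.0% with 1000 rows. Rows apart from N. RPCs numbered 325 at 1.5-fold, 37 at a mean of at least 50 CPM and 83 to 131 without each library, and rows apart from ganglion cells 3516 and 960. With no filter the rows that differed from ganglion cells were more positive for 1576 and more negative for 2580, and without E18 for 1134 and 1386. The steps gave 125 to 567, 47 to 223 and 2 to 13 rows. The cause of these shifts was not tested. E18 rests on a single library.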
